A study of Homo sapiens with 9 samples.

Results

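The 37 genes of the human mitochondrial genome were followed across 9 RNA sequencing libraries of PANC1, an established line grown from a human pancreatic ductal carcinoma. The members are all rows of the count table whose gene name starts with MT-, and they are 37 of the table's 60612 rows: 13 protein-coding genes, 2 ribosomal RNA (rRNA) genes and 22 transfer RNA (tRNA) genes. Cells carried an overexpression plasmid for flag-tagged NUSAP1 (3 libraries), received an siRNA against NUSAP1 (knockdown, 3 libraries) or were untreated (control, 3 libraries). NUSAP1 binds and bundles spindle microtubules in dividing cells. The labels give wild-type genotype and no treatment for the controls and name neither an empty-plasmid nor a control-siRNA group, so each comparison with control also holds any effect of the transfection itself. The plasmid and siRNA comparisons share the same 3 control libraries. The labels do not say whether the 3 libraries of a group came from separate cultures, so p-values measure the spread between these libraries, which may be technical.

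Mitochondrial DNA is transcribed from both strands as long precursors that carry several genes each. In the usual account tRNAs sit between the coding and rRNA genes. Cutting at both tRNA ends by the mitochondrial RNase P and by ELAC2 releases the mature RNAs. Of these, the rRNAs and most messenger RNAs then receive a short poly(A) tail. The 13 coding genes give subunits of the respiratory chain and ATP synthase, namely 7 of complex I, 1 of complex III, 3 of complex IV and 2 of complex V. All other parts of these complexes, and all factors that copy, transcribe and process the mitochondrial genome, are nuclear-encoded.

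Depth was 57115172 to 73386227 counts per library. NUSAP1 had 12910 to 13792 FPKM (fragments per kilobase, scaled to library depth by the authors) in overexpression libraries and 11.6 to 13.8 FPKM in knockdown libraries, against 30.9 to 42.1 FPKM in control libraries. NUSAP1 thus lay above all controls in every overexpression library and below them in every knockdown library. The plasmid transcript alone took 5.63% to 6.0% of the counts of the overexpression libraries. The ductal markers KRT8 (22.1 to 40.5 FPKM) and KRT18 (56.0 to 130.0 FPKM) were present in all 9 libraries, while KRT7 (0.313 to 0.825 FPKM) and EPCAM (0.632 to 1.84 FPKM) were low. Acinar and islet markers summed to at most 0.038 FPKM. The 10 immune, endothelial and fibroblast markers summed to 32.8 to 59.2 FPKM over the 9 libraries, nearly all of it from 3 genes. CD68 had 28.8 to 49.1 FPKM after overexpression and 17.1 to 19.5 FPKM after knockdown, against 10.7 to 12.5 FPKM in the control. COL1A1 had 8.20 to 8.78 FPKM and 10.8 to 11.7 FPKM in those treated groups, against 17.2 to 18.5 FPKM in the control, and COL3A1 had 0.785 to 0.994 FPKM and 4.09 to 4.45 FPKM, against 3.12 to 3.51 FPKM. The immune marker PTPRC was at most 0.055 FPKM in any library. A set of 4 libraries stood apart by the liver gene ALB, with 3.55 and 3.64 FPKM in overexpression libraries 1 and 3 and 4.32 and 4.85 FPKM in control libraries 2 and 3, against 0 to 0.049 FPKM in the other 5; the 16 hepatocyte markers summed to 22.8 to 33.7 FPKM in those 4 libraries and to 0.217 to 0.882 FPKM in the other 5. Without these 4 libraries 1 overexpression and 1 control library remain, and the mitochondrial share, its classes and the counts of called genes are also given that way. The makeup of the coding RNA is not, since single libraries cannot overlap. The part of these RNAs, or of CD68, COL1A1 and COL3A1, in any result was not tested.

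Mitochondrial transcripts took a smaller share of the counts, which come from poly(A)-selected RNA, in both treated groups than in the control. They made up 8.11%, 7.39% and 6.82% of counts after overexpression and 8.21%, 8.41% and 9.71% of counts after knockdown, against 13.97%, 11.18% and 10.07% in untreated cells. All 6 treated libraries lay below all 3 controls, overexpression libraries lay below knockdown libraries, and control library 1 stood highest. The means were 7.44% ± 0.648 after overexpression, 8.78% ± 0.814 after knockdown and 11.7% ± 2.01 in the control (SD, n = 3 each). The difference from control was -4.30 percentage points after overexpression and -2.96 after knockdown, and that between overexpression and knockdown was -1.34. Each gave p = 0.1 in an exact two-sided permutation test, the smallest p that 3 against 3 libraries allow. Paired by number, the knockdown libraries differed from their controls by -5.76, -2.77 and -0.36 points, of 1 sign but uneven size (exact paired permutation test, p = 0.25, the smallest that 3 pairs allow). Without the 4 ALB libraries the differences from control were -6.58 points after overexpression and -5.19 after knockdown. Without control library 1 the difference after knockdown was -1.85 points, and without knockdown library 3 that between overexpression and knockdown was -0.87 points. These are bulk samples, so fewer cells of a type and less RNA per cell cannot be told apart. A share can also move because other RNAs do: with NUSAP1 left out of the total, the overexpression libraries had 8.61%, 7.87% and 7.22%, still below all 3 controls, but overexpression library 1 then lay above knockdown libraries 1 and 2 (8.21% and 8.41%). The separation of overexpression from knockdown was thus lost, with a difference of -0.88 points.

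All 3 classes of mitochondrial RNA had a lower mean share of all counts than the control in both treated groups. Within the tRNA class, the summed share of the rows on the + strand, most of it from MT-TL1, went the other way. Single rows did not all follow their strand. After overexpression, MT-TT on the + strand had a log2 fold change of -0.85 relative to control, and MT-TQ on the - strand one of 1.48. Coding genes held 6.63% ± 0.629 of all counts after overexpression and 8.03% ± 0.743 after knockdown, against 10.7% ± 1.96 in the control (SD, n = 3 each). The 2 rRNA rows held 0.723% ± 0.0151, 0.626% ± 0.0701 and 0.895% ± 0.0481 in the same order, with no overlap between any groups. All tRNA rows together held 0.0911% ± 0.00573 after overexpression and 0.117% ± 0.0105 after knockdown, against 0.133% ± 0.025 in the control. Only overexpression was without overlap with the control. Within the mitochondrial counts all tRNA rows made up 1.23%, 1.33% and 1.13% in the same order, with no overlap between any groups. Most tRNA counts lay in rows on the - strand. The 14 tRNA rows on the + strand had higher shares than the control, at 0.0122% ± 0.00063 after overexpression and 0.0112% ± 0.00077 after knockdown, against 0.00861% ± 0.00155 in the control. Within the mitochondrial counts alone they made up 0.165% ± 0.00712 after overexpression and 0.128% ± 0.0118 after knockdown, against 0.0732% ± 0.00125 in the control, 2.25 and 1.75 times the control mean, with no overlap between groups (exact two-sided permutation test, p = 0.1 each). MT-TL1 held most of these + strand counts. Without it the shares of all counts were 0.00382% after overexpression and 0.00302% after knockdown, against 0.00271% in the control, where knockdown overlapped the control (exact two-sided permutation test, p = 0.5). Within the mitochondrial counts they were 0.0519% and 0.0348%, against 0.0233% in the control, with neither treated group overlapping it but the treated groups overlapping each other. The 8 tRNA rows on the - strand held a smaller share of all counts after overexpression (0.0789% against 0.124% in the control, no overlap), and after knockdown (0.105%) their libraries overlapped the control's. In the libraries without ALB, coding genes held 6.59% in overexpression library 2 and 7.48% to 8.88% in knockdown libraries, against 12.9% in control library 1, and the + strand tRNA rows held 0.0125% and 0.0104% to 0.0119%, against 0.0103%.

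**Figure D1:**
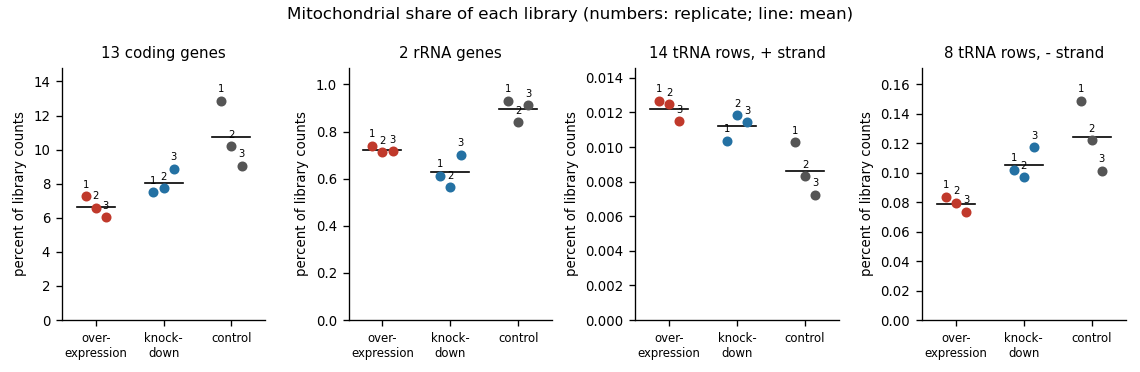
Percent of each library's counts (y axis) in the 13 coding genes, the 2 rRNA genes, the 14 tRNA rows annotated on the + strand and the 8 on the - strand; each point is 1 library with its replicate number and the line is the group mean. Coding and rRNA shares are below the control in all 6 treated libraries, whereas the + strand tRNA share is above it. For the + strand rows, knockdown library 1 (0.01037%) and control library 1 (0.01028%) are nearly equal. Without MT-TL1 the + strand share after knockdown overlaps the control. The - strand rows, which hold most tRNA counts, are below the control after overexpression and overlap it after knockdown.

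All 13 coding genes had lower mean FPKM after overexpression than in the control, and 12 of the 13 passed the test as lower, with MT-ND1 the exception. Over all 12545 genes tested, 26.0% were called lower in this comparison. The 13 coding genes moved together and are not 13 independent results. By share of counts, control library 1 was the highest of the 9 libraries for all 13, and overexpression library 3 the lowest for 11. A gene was called at a Benjamini-Hochberg adjusted p below 0.05 in edgeR's quasi-likelihood test on the counts, and all adjusted p-values below come from that fit. The median log2 fold change of the coding genes was -0.65 (range -0.87 to -0.42), beside -0.0037 for all genes tested. Without overexpression library 3 the number called fell to 7, with MT-ATP8, MT-ND2, MT-ND4L, MT-ND5 and MT-ND6 lost, and without the 4 ALB libraries 9 were called.

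Complex IV, cytochrome c oxidase, takes its catalytic core from the mitochondrial genome. MT-CO2, the most abundant row of the whole table by mean FPKM, had 11042, 9809 and 9495 FPKM in overexpression libraries, against 20343, 17296 and 17600 FPKM in control libraries. All 3 overexpression libraries were far below the lowest control (log2 fold change -0.79, SE 0.12, edgeR adjusted p = 0.000704). MT-CO3 had 4732, 4282 and 3829 FPKM in overexpression libraries, against 9700, 7626 and 7356 FPKM in control libraries. It too was separated without overlap (log2 fold change -0.86, SE 0.14, edgeR adjusted p = 0.000873). MT-CO1, which holds the oxygen-reducing site, fell less, to 6358, 5514 and 5697 FPKM in overexpression libraries, against 10485, 8988 and 7819 FPKM in control libraries (log2 fold change -0.56, SE 0.14, edgeR adjusted p = 0.00963).

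Among the 7 complex I genes, which build the membrane arm of NADH dehydrogenase, MT-ND3 changed most relative to its spread. It had 1633, 1538 and 1675 FPKM in overexpression libraries, against 3399, 2833 and 3134 FPKM in control libraries (log2 fold change -0.87, SE 0.11, edgeR adjusted p = 0.000268). The 3 overexpression libraries lay within a narrow band, well below every control. MT-ND4 had 8710, 8004 and 6650 FPKM in overexpression libraries, against 17701, 12985 and 10941 FPKM in control libraries (log2 fold change -0.76, SE 0.19, edgeR adjusted p = 0.00922). Its control libraries were spread widely, with control library 1 the highest, yet none overlapped. MT-ND6, the only coding gene on the - strand, had 2368, 2036 and 1622 FPKM in overexpression libraries, against 5136, 3482 and 2832 FPKM in control libraries (log2 fold change -0.85, SE 0.23, edgeR adjusted p = 0.0145). MT-ND2, MT-ND4L and MT-ND5 fell by 0.46, 0.56 and 0.61 on the log2 scale (edgeR adjusted p = 0.0222, 0.0211 and 0.0177). MT-ND1 had 8161, 6786 and 6285 FPKM in overexpression libraries, against 12467, 9259 and 8143 FPKM in control libraries. Overexpression library 1 reached the level of control library 3, and the gene did not pass the test (log2 fold change -0.42, SE 0.18, edgeR adjusted p = 0.0853).

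MT-CYB, the only mitochondrially encoded subunit of complex III, had 3581, 3306 and 2959 FPKM in overexpression libraries, against 6097, 5035 and 4358 FPKM in control libraries. The groups did not overlap (log2 fold change -0.57, SE 0.14, edgeR adjusted p = 0.00793). The ATP synthase subunits MT-ATP8 and MT-ATP6 share 46 bases and in cells lie on 1 messenger RNA. MT-ATP8 had 3803, 3655 and 3213 FPKM in overexpression libraries, against 8423, 5047 and 4881 FPKM in control libraries (log2 fold change -0.71, SE 0.22, edgeR adjusted p = 0.0232). MT-ATP6 had 1696, 1511 and 1371 FPKM in overexpression libraries, against 3158, 2311 and 2125 FPKM in control libraries (log2 fold change -0.65, SE 0.17, edgeR adjusted p = 0.0117). Both were lower in every overexpression library than in any control. Per length, MT-ATP8 stood at 2.34 ± 0.0888 times MT-ATP6 after overexpression and 2.30 ± 0.0184 times after knockdown, against 2.38 ± 0.253 times in the control (SD, n = 3 each), with overlapping groups. MT-ND4L and MT-ND4, the other pair that lies on 1 messenger RNA and shares 7 bases, had ratios of 0.943 ± 0.0827 and 0.911 ± 0.0297, against 0.827 ± 0.0861 in the control, again overlapping. The bases on which each pair overlaps are printed here with 30 bases on either side (GRCh38, + strand), since a fragment over them cannot be given to 1 gene; the capitals mark the shared bases.
MT-ATP8 and MT-ATP6, chrMT:8497-8602: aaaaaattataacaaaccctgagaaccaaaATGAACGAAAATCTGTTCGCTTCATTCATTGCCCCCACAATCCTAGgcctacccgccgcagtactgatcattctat
MT-ND4L and MT-ND4, chrMT:10730-10796: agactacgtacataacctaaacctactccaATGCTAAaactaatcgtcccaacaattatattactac

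**Figure D2:**
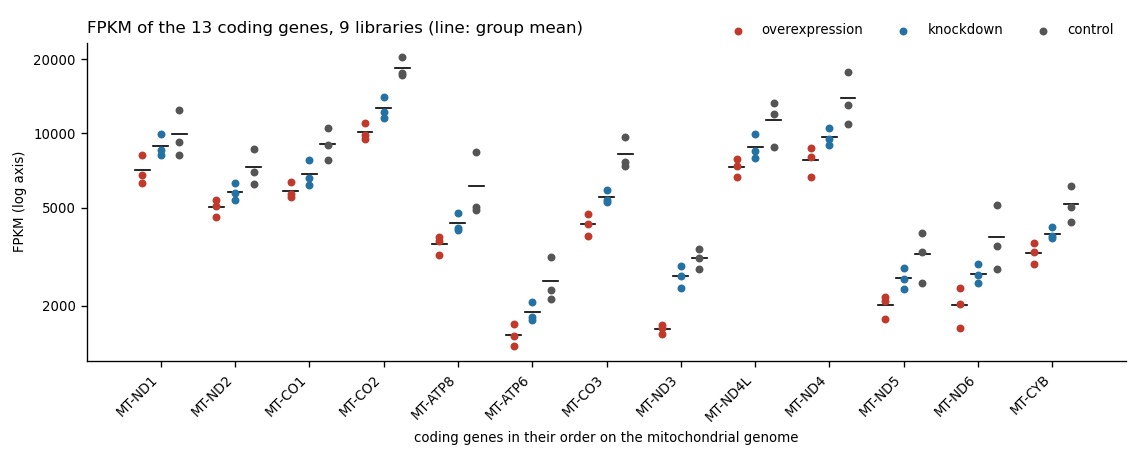
FPKM (y axis, log scale) of the 13 coding genes in their order on the mitochondrial genome, with 1 point per library and a line at each group mean. Overexpression lies lowest and control highest for all 13 by mean, and MT-ND3 shows the widest gap between overexpression and knockdown.

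After knockdown all 13 coding genes again had negative log2 fold changes, from -0.59 to -0.18 with a median of -0.42 beside 0.0157 for all genes, but only 2 of 13 were called lower, where 7.43% of all tested genes were. Both encode core subunits of cytochrome c oxidase. MT-CO2 had 12257, 11514 and 14107 FPKM in knockdown libraries, against 20343, 17296 and 17600 FPKM in control libraries (log2 fold change -0.56, SE 0.12, edgeR adjusted p = 0.0185). MT-CO3 had 5393, 5275 and 5920 FPKM in knockdown libraries, against 9700, 7626 and 7356 FPKM in control libraries (log2 fold change -0.59, SE 0.14, edgeR adjusted p = 0.0248). For both, every knockdown library was below every control. MT-CYB (-0.41, edgeR adjusted p = 0.0846) and MT-ND4 (-0.54, edgeR adjusted p = 0.0919) did not pass. Both calls were lost without knockdown library 1 or knockdown library 2 (0 called), 5 were called without control library 3, and neither held when the replicate number was a block in a fit of these 2 groups (edgeR adjusted p = 0.0539 for MT-CO2 and 0.0682 for MT-CO3) or without the 4 ALB libraries (0.193 and 0.126). Quantile scaling of FPKM gave MT-ND1 and MT-ND2 positive values of 0.08 and 0.10.

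Set directly against each other, overexpression and knockdown differed in 1 coding gene of 13, MT-ND3, called lower (24.5% of all genes tested were called lower here). It had 1633, 1538 and 1675 FPKM in overexpression libraries, against 2652, 2370 and 2889 FPKM in knockdown libraries (log2 fold change -0.62, SE 0.11, edgeR adjusted p = 0.00201). The highest overexpression library was well below the lowest knockdown library, and the call was lost under quantile scaling (-0.15, limma adjusted p = 0.332). All 13 coding genes had negative values (median -0.21, range -0.62 to -0.11, beside -0.0056 for all genes). Without control library 1, which enters through the shared estimate of spread, 2 were called.

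The makeup of the coding RNA itself, which does not depend on scaling between libraries, differed in a few genes. As a percent of the counts of the 13 coding genes, MT-ND1 held 12.3% ± 0.55 after overexpression and 12.5% ± 0.185 after knockdown, against 10.5% ± 0.422 in the control. MT-ND2 held 9.53% ± 0.213 and 8.95% ± 0.226, against 8.41% ± 0.111 in the control (SD, n = 3 each). These neighbours on the genome thus took a larger part of a smaller whole in every treated library. MT-CO3 held a smaller part, 6.10% ± 0.0648 after overexpression and 6.43% ± 0.255 after knockdown, against 7.15% ± 0.35 in the control, again with no overlap. MT-CYB held a slightly larger part after overexpression (6.81% ± 0.077 against 6.52% ± 0.128 in the control). The makeup did not overlap for 4 of 13 genes between overexpression and control, 3 of 13 between knockdown and control and 4 of 13 between overexpression and knockdown, each at p = 0.1, the smallest an exact two-sided permutation test allows. Set against the counts of the 13 coding genes, 58.9%, 40.5% and 49.4% of all tested genes did not overlap in these comparisons. The share of the coding genes as a whole also differed between the groups. That difference moves other genes set against the coding counts, but not the coding genes set against their own sum. The 3 counts can therefore not be ranked against these shares. MT-ND3 held 1.02% ± 0.123 after overexpression, against 1.35% ± 0.1 after knockdown, and MT-ND6 held 1.91% ± 0.179 after overexpression, against 2.09% ± 0.0385 after knockdown.

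The 2 ribosomal RNAs, the small-subunit MT-RNR1 and the large-subunit MT-RNR2, lie next to each other (chrMT:648-1601 and chrMT:1671-3229, + strand, GRCh38) with MT-TV between them. MT-RNR1 had 941, 860 and 934 FPKM in overexpression libraries and 577, 546 and 658 FPKM in knockdown libraries, against 870.3, 814 and 877 FPKM in control libraries. Overexpression libraries lay among or just above the controls and knockdown libraries lay below both. Relative to control MT-RNR1 did not pass after overexpression (log2 fold change 0.17, SE 0.10, edgeR adjusted p = 0.173) and fell after knockdown (-0.54, SE 0.10, edgeR adjusted p = 0.0103). MT-RNR2 had 3374, 3272 and 3228 FPKM in overexpression libraries and 2957, 2713 and 3377 FPKM in knockdown libraries, against 4518, 4065 and 4397 FPKM in control libraries. All treated libraries were below all controls, and the gene was called lower after overexpression (-0.32, SE 0.10, edgeR adjusted p = 0.0314) and after knockdown (-0.53, SE 0.10, edgeR adjusted p = 0.0127). Between overexpression and knockdown MT-RNR1 was higher after overexpression (0.71, SE 0.10, edgeR adjusted p = 0.000476; 25.5% of all genes were called higher). The ratio of MT-RNR1 to MT-RNR2 per length was 0.279, 0.263 and 0.289 in overexpression libraries and 0.195, 0.201 and 0.195 in knockdown libraries, against 0.193, 0.200 and 0.199 in control libraries. Overexpression stood apart, whereas knockdown and control overlapped (exact two-sided permutation test, p = 0.1 and 1.0). The sequencing RNA was poly(A)-selected, so these rows do not measure the rRNA of a cell but the part that was captured. The MT-RNR2 call after overexpression was lost without either of overexpression libraries 2 and 3, without control library 1 or 3, under TPM scaling and without the 4 ALB libraries. After knockdown the MT-RNR2 call was lost without knockdown library 1 (edgeR adjusted p = 0.0526), and both rRNA calls were lost without the ALB libraries (0.222 for MT-RNR1 and 0.231 for MT-RNR2), as was that of MT-RNR1 between overexpression and knockdown (0.053). The MT-RNR2 value after overexpression was 0.07 under quantile scaling, and MT-RNR1 was called higher (0.33, limma adjusted p = 0.0136) under TPM scaling.

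The tRNA rows were called in both directions. After overexpression 7 of 22 were called higher and 7 lower, where 27.4% of all genes tested were called higher and 26.0% lower, so neither count stands out from the table. The median was 0.37 and the range -0.85 to 1.85, and all 22 passed the filter on low values. The rows called higher were MT-TI, MT-TQ, MT-TM, MT-TL1, MT-TK, MT-TV and MT-TF, and those called lower were MT-TA, MT-TN, MT-TC, MT-TY, MT-TE, MT-TT and MT-TP. Rows are only 59 to 75 bases long, while library inserts averaged 300 ± 50 bp per the labels. A fragment over a tRNA row therefore reaches into its neighbours, and a precursor and the end of a neighbouring transcript cannot be told apart in these counts. The RNA was poly(A)-selected and the rows are shorter than the inserts, so these counts do not measure mature tRNA. No source used here states the strand setting of the counting, so reads of a row and of the opposite strand cannot be told apart either.

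The largest rises were in 3 rows that sit side by side between MT-ND1 and MT-ND2, for isoleucine, glutamine and methionine tRNA. MT-TI and MT-TQ lie on opposite strands and share 3 bases. The reference sequences are written 5′ to 3′ on each gene's own strand (GRCh38) with the anticodon in capitals. They are shown because these rows rose most. That of MT-TL1, the leucine tRNA just before MT-ND1, is added as the most abundant row called higher.
MT-TL1, chrMT:3230-3304, + strand: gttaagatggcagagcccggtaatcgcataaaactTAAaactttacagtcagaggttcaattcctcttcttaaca
MT-TI, chrMT:4263-4331, + strand: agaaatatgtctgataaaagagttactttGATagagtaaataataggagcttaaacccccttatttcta
MT-TQ, chrMT:4329-4400, - strand: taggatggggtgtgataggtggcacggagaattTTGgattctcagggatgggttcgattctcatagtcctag
MT-TM, chrMT:4402-4469, + strand: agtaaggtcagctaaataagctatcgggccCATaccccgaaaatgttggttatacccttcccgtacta

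MT-TI had 92.2, 98.4 and 100.6 FPKM in overexpression libraries (478, 514 and 527 counts) and 35.6, 37.4 and 34.0 FPKM in knockdown libraries, against 34.8, 25.1 and 25.1 FPKM in control libraries (209, 127 and 118 counts). Overexpression libraries were far above all others, and knockdown overlapped control. The log2 fold change was 1.85 (SE 0.18, edgeR adjusted p = 4.79e-05) between overexpression and control and 1.54 (SE 0.17, edgeR adjusted p = 0.00014) between overexpression and knockdown, while knockdown against control gave 0.31 and did not pass (edgeR adjusted p = 0.28). Both calls held under all 23 alternatives run, at 1.51 to 2.02 and at 1.42 to 1.58.

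MT-TM had 44.4, 44.9 and 35.0 FPKM in overexpression libraries and 18.9, 22.2 and 21.8 FPKM in knockdown libraries, against 15.3, 16.9 and 14.5 FPKM in control libraries. The 3 groups were ordered without overlap. The gene was called higher after overexpression relative to control (1.49, SE 0.19, edgeR adjusted p = 0.000236) and to knockdown (1.08, SE 0.19, edgeR adjusted p = 0.00146), and not after knockdown relative to control (0.41, edgeR adjusted p = 0.188). MT-TQ was the least counted, with 66, 80 and 68 counts in overexpression libraries and 35, 36 and 29 in knockdown libraries, against 42, 14 and 26 in control libraries. Only overexpression stood apart (1.48, SE 0.36, edgeR adjusted p = 0.00754 against control; 1.16, SE 0.35, edgeR adjusted p = 0.0235 against knockdown). Without the 4 ALB libraries the overexpression-control calls of MT-TM and MT-TQ were lost (edgeR adjusted p = 0.0541 and 0.186). The MT-TQ call against knockdown was lost without overexpression library 2, without knockdown library 3 and without the ALB libraries (0.0694, 0.0786 and 0.0761).

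MT-TL1 was the most abundant of the rising tRNA rows. It had 1044, 924 and 821 FPKM in overexpression libraries and 851, 922 and 988 FPKM in knockdown libraries, against 821, 647 and 525 FPKM in control libraries. By FPKM all 6 treated libraries were above all 3 controls. Overexpression library 3 (821.4 FPKM) and control library 1 (820.9 FPKM) were nearly equal, however. On the scaled counts of the edgeR fit, the knockdown and control libraries overlapped. MT-TL1 was called higher after overexpression (0.56, SE 0.18, edgeR adjusted p = 0.0249) and did not pass after knockdown (0.45, edgeR adjusted p = 0.124). Overexpression and knockdown differed by 0.11 (edgeR adjusted p = 0.636). The overexpression call was lost without overexpression library 1 or 2, without control library 2 or 3 and without the 4 ALB libraries.

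MT-TL1 was set against MT-ND1, which follows it, and MT-TI and MT-TM against MT-ND2, which follows them. These ratios describe rows chosen because they parted from the coding genes, so their permutation tests are not reported. The ratio of MT-TL1 to MT-ND1 per length was 0.132 ± 0.00424 after overexpression and 0.104 ± 0.00425 after knockdown, against 0.0667 ± 0.00279 in the control. That of MT-TI to MT-ND2 was 0.0195 ± 0.00242 and 0.00619 ± 0.00067, against 0.00388 ± 0.00025 in the control, and that of MT-TM to MT-ND2 was 0.00823 ± 0.0006 and 0.00361 ± 0.00021, against 0.00217 ± 0.00035 in the control (SD, n = 3 each). All 3 ratios were highest after overexpression and lowest in the control, with no overlap. Set against the counts of the 13 coding genes, 58.9% of all tested genes did not overlap between overexpression and control, 40.5% between knockdown and control and 49.4% between overexpression and knockdown. In the libraries without ALB, MT-TL1 over MT-ND1 was 0.136 in overexpression library 2 and 0.0996 to 0.108 in knockdown libraries, against 0.0658 in control library 1.

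**Figure D3:**
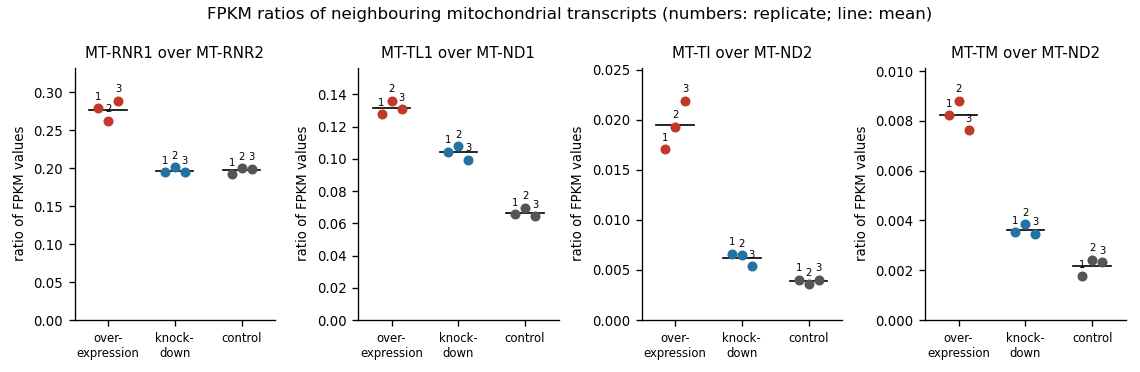
Ratio of FPKM values (y axis) of 4 pairs of mitochondrial rows in each library, shown as points with replicate numbers and a line at the group mean. MT-RNR1 over MT-RNR2 is raised in overexpression libraries only, whereas the 3 tRNA ratios are ordered overexpression, knockdown, control without overlap.

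The other rows called higher after overexpression changed less. MT-TV and MT-TF, the valine and phenylalanine tRNAs on either side of MT-RNR1, gave 0.52 (edgeR adjusted p = 0.0314) and 0.43 (edgeR adjusted p = 0.0447), and MT-TK, the lysine tRNA before MT-ATP8, gave 0.96 (SE 0.31, edgeR adjusted p = 0.0307). All 3 calls were lost without overexpression library 1, overexpression library 2, control library 2 or the ALB libraries, and the calls of MT-TF and MT-TV against knockdown (0.48 and 0.55, edgeR adjusted p = 0.031 and 0.028) held in 16 and 17 of 23 alternatives. Both were lost without overexpression library 2, knockdown library 1 or 2 or the ALB libraries, MT-TF also without overexpression library 3 or knockdown library 3, and MT-TV without overexpression library 1. In all, leaving out overexpression library 2 or 3 lowered the rRNA and tRNA rows called from 15 to 7 or 9, and 4 were called without the ALB libraries.

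Rows called lower included 4 neighbours that all lie on the - strand between MT-ND2 and MT-CO1, for alanine, asparagine, cysteine and tyrosine tRNA. MT-TN, MT-TC and MT-TY carried more reads than any tRNA row outside this group, while MT-TA was close to MT-TL1 after overexpression. They are printed (5′ to 3′ on the - strand, GRCh38, anticodon in capitals) as the contrast to the rising group.
MT-TA, chrMT:5587-5655: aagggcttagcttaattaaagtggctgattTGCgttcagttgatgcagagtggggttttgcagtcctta
MT-TN, chrMT:5657-5729: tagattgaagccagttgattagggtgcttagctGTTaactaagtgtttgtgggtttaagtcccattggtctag
MT-TC, chrMT:5761-5826: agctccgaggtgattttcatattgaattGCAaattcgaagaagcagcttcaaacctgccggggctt
MT-TY, chrMT:5826-5891: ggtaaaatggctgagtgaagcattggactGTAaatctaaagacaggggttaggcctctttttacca

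MT-TA had 1033, 1159 and 1042 FPKM in overexpression libraries and 1410, 1327 and 1433 FPKM in knockdown libraries, against 1757, 1708 and 1542 FPKM in control libraries. The 3 groups were ordered without overlap, and the row was called lower after overexpression relative to control (-0.55, SE 0.09, edgeR adjusted p = 0.00118) and to knockdown (-0.27, edgeR adjusted p = 0.0371). MT-TN followed the same order of means, at 2548 ± 109 FPKM after overexpression and 3388 ± 260 FPKM after knockdown, against 3974 ± 444 FPKM in the control (SD, n = 3 each). It was called lower relative to control (-0.56, edgeR adjusted p = 0.00328) and to knockdown (-0.32, edgeR adjusted p = 0.0451). The calls against knockdown were fragile: MT-TA kept it in 12 of 23 alternatives and MT-TN in 13, and both lost it with the replicate block and without overexpression library 1 or 3, knockdown library 1 or 3, control library 2 or the ALB libraries, as did MT-TN without overexpression library 2. Both lost the call against control without the ALB libraries. MT-TC gave -0.62 (edgeR adjusted p = 0.0221) and MT-TY -0.62 (edgeR adjusted p = 0.0375) relative to control. Farther along, MT-TE gave -0.80, MT-TT -0.85 and MT-TP -0.78 (edgeR adjusted p = 0.0205, 0.00462 and 0.00418). The groups overlapped for MT-TY. The calls of MT-TC, MT-TY and MT-TE were lost without overexpression library 2 or 3, those of MT-TC and MT-TY also without control library 1, and that of MT-TY without control library 2 or knockdown library 1. MT-TC and MT-TT lost theirs without the ALB libraries, and MT-TP kept it in 23 of 23 alternatives. These 7 values lie within or near the range of the coding genes.

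After knockdown only MT-TD, the aspartate tRNA before MT-CO2, was called among the 22 tRNA rows, where 7.02% of all genes were called higher. It had 32.0, 44.4 and 40.1 FPKM in knockdown libraries, against 26.3, 21.4 and 17.0 FPKM in control libraries (log2 fold change 0.82, SE 0.22, edgeR adjusted p = 0.0399). Every knockdown library was above every control, but the call was lost with the replicate number as a block (edgeR adjusted p = 0.0668) and in 13 of 24 alternatives in all. The median of the 22 rows was -0.03 and changed sign with the scaling (0.11 under TPM). Between overexpression and knockdown 5 rows were called higher and 2 lower, where 25.5% and 24.5% of all genes were, with a median of 0.06 that was -0.03 with library totals only. Of the 8 rRNA and tRNA rows called there, 5 were left without overexpression library 1 or 3. Without overexpression library 2 or knockdown library 1 or 3, 4 were left. Leaving out knockdown library 3 also added a call of MT-RNR2.

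**Figure D4:**
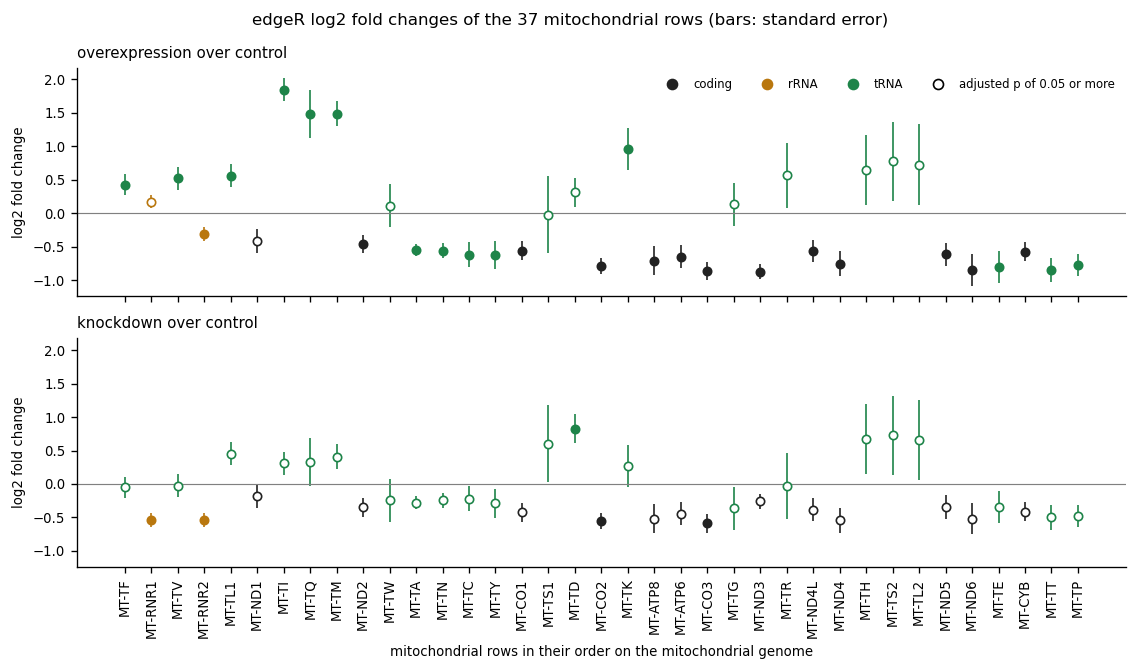
Log2 fold changes (y axis) from edgeR with standard errors for all 37 mitochondrial rows in genome order, overexpression over control above and knockdown over control below; filled points have an adjusted p below 0.05. MT-TI, MT-TQ and MT-TM stand highest in the upper panel, and coding rows lie below 0 in both.

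A run of 3 tRNA rows with no base between them, for histidine, serine and leucine, varied widely in treated groups, less in controls. They lead directly into MT-ND5 and are printed because their values moved together from library to library (5′ to 3′, + strand, GRCh38, anticodon in capitals).
MT-TH, chrMT:12138-12206: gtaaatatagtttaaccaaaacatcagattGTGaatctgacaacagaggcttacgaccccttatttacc
MT-TS2, chrMT:12207-12265: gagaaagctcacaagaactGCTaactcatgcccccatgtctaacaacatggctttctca
MT-TL2, chrMT:12266-12336: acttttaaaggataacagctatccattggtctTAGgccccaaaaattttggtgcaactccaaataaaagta

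MT-TH had 15.5, 49.8 and 43.8 FPKM in overexpression libraries and 39.9, 64.5 and 15.6 FPKM in knockdown libraries, against 24.3, 22.5 and 26.4 FPKM in control libraries. MT-TS2 had 9.66, 36.3 and 38.5 FPKM in overexpression libraries and 26.6, 49.9 and 11.7 FPKM in knockdown libraries, against 16.2, 14.6 and 21.0 FPKM in control libraries. MT-TL2 had 7.30, 20.6 and 30.4 FPKM in overexpression libraries and 16.0, 36.0 and 8.25 FPKM in knockdown libraries, against 11.2, 10.1 and 15.8 FPKM in control libraries. In all 3 rows overexpression library 1 and knockdown library 3 were the lowest of the 9 libraries and knockdown library 2 the highest. None passed against control (0.65, 0.78 and 0.73 after overexpression, edgeR adjusted p = 0.329, 0.299 and 0.339), with standard errors of 0.52 to 0.60. The 3 rows together are shorter than an average insert, so 1 fragment can cover them all and they are not independent. MT-ND5 next to them did not share this pattern, with 2178, 2085 and 1767 FPKM in overexpression libraries and 2342, 2581 and 2841 FPKM in knockdown libraries, against 3949, 3321 and 2484 FPKM in control libraries.

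**Figure D5:**
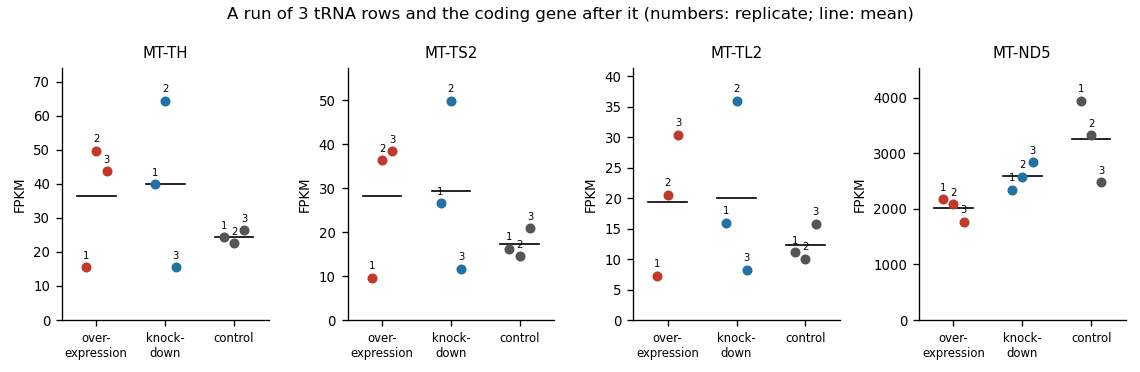
FPKM (y axis) of MT-TH, MT-TS2, MT-TL2 and the coding gene after them, MT-ND5, by group, with points numbered by replicate and a line at the mean. Overexpression library 1 and knockdown library 3 are low in the 3 tRNA rows and not in MT-ND5.

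Reads of mitochondrial genes can also be given to their copies in the nuclear genome, of which the table lists 408. Only 3 had a mean count of at least 1000, and all lie in 1 stretch of chromosome 1 that holds copies of several mitochondrial genes in order. MTND2P28, MTCO1P12 and MTATP6P1 are 98.4%, 98.6% and 98.5% identical to MT-ND2, MT-CO1 and MT-ATP6. MTATP6P1 had 55617, 50441 and 1 counts in overexpression libraries and 54796, 60691 and 79272 counts in knockdown libraries, against 113828, 76203 and 65527 counts in control libraries. In 8 libraries this was 61.0% to 68.8% of the MT-ATP6 count, and in overexpression library 3 it was a single read while MT-ATP6 itself was not raised there. The first bases of both genes are shown because they differ at 1 place only (G19A, counted from 1 at the 5′ end of MT-ATP6; capitals), among 10 differences over 681 bases.
MT-ATP6, chrMT:8527-8647, + strand: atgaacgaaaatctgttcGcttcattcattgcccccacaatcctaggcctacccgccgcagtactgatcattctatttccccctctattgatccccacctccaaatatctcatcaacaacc
MTATP6P1, chr1:633696-633816, + strand: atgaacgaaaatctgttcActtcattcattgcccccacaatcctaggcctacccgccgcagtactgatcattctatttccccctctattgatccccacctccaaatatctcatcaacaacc

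MTCO1P12 had 23723, 2974 and 2258 counts in overexpression libraries and 4686, 2179 and 38204 counts in knockdown libraries, against 34344, 2712 and 2131 counts in control libraries. One library of each group was thus far above the others, overexpression library 1, knockdown library 3 and control library 1. These same libraries had the highest MTND2P28 count of their group, at 43752, 76216 and 63225. With the counts of the 3 copies added to their mitochondrial genes, 11 of 13 coding genes were called lower after overexpression, MT-ND2 being lost, and the knockdown calls were the same 2.

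Nuclear genes that serve mitochondrial RNA were followed by list. Of 19 tested genes for mitochondrial RNA processing, polyadenylation and decay, 11 were called higher and 1 lower after overexpression (median 0.48), beside 27.4% and 26.0% of all genes, and 4 were called higher without the 4 ALB libraries. PNPT1, the polynucleotide phosphorylase that degrades mitochondrial RNA, had 34.0 ± 3.79 FPKM after overexpression, against 12.3 ± 1.07 FPKM in the control (SD, n = 3 each; log2 fold change 1.55, SE 0.12, edgeR adjusted p = 1.91e-05). Its partner helicase SUPV3L1 had 15.0 ± 0.212 FPKM against 8.73 ± 0.276 FPKM in the control (0.86, edgeR adjusted p = 3.08e-05), and PDE12, which removes poly(A) tails in mitochondria, 5.78 ± 0.164 FPKM against 2.85 ± 0.235 FPKM (1.1, edgeR adjusted p = 1.4e-05). All 3 were higher in every overexpression library than in any control. After knockdown 1 gene of this list was called higher, FASTKD5 (0.53), and 1 lower, the RNase P subunit TRMT10C (-0.40), with edgeR adjusted p = 0.00142 and 0.028. Of all genes, 7.02% were called higher there and 7.43% lower. Between overexpression and knockdown 9 were called higher and 1 lower, where 25.5% and 24.5% of all genes were.

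Of 14 genes for modification of mitochondrial rRNA and tRNA, 7 were called higher and 1 lower after overexpression (median 0.58; 2 higher without the ALB libraries), again beside 27.4% and 26.0% of all genes. The tRNA methyltransferase TRMT5 gave 0.94 and the tRNA wobble-base modifier MTO1 gave 0.71, while its partner GTPBP3 gave -0.59 (edgeR adjusted p = 4.01e-05, 0.000179 and 0.00141). After knockdown TRMT5 alone was called, as lower (-0.45, edgeR adjusted p = 0.0115), where 7.43% of all genes were. Of 7 transcription genes 3 were called higher and 1 lower after overexpression (median 0.35; 27.4% and 26.0% of all genes), with none called without the ALB libraries. TFB2M, the initiation factor, had 11.0 ± 0.555 FPKM against 7.43 ± 0.362 FPKM in the control (0.64, edgeR adjusted p = 0.00126), TFAM, which packages and transcribes mitochondrial DNA, 11.6 ± 0.778 FPKM against 8.06 ± 0.424 FPKM (0.61, edgeR adjusted p = 0.00192), and the elongation factor TEFM gave 0.57 (edgeR adjusted p = 0.0144). Without overexpression library 2 or control library 3, 2 of the 7 were called. After knockdown MTERF3 alone was called, as lower (-0.54, edgeR adjusted p = 0.0283), again beside 7.43% of all genes. Of 6 tested nuclear regulators 2 were called higher after overexpression, beside 27.4% of all genes. These were the coactivator PPRC1 (1.35, edgeR adjusted p = 1.82e-06) and the transcription factor subunit GABPB1 (1.34, edgeR adjusted p = 4.81e-05). After knockdown 0 of the 6 were called, where DESeq2 called 2. Of 10 genes for DNA replication and nucleotide supply 3 were higher and 2 lower after overexpression, near the 27.4% and 26.0% of all genes, and 1 higher and 2 lower after knockdown, where 7.02% and 7.43% of all genes were. With 1 overexpression or control library left out these overexpression calls came to 2 or 3, and to 0 without the ALB libraries, and the overexpression median of -0.13 was 0.03 under TPM scaling.

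Nuclear-encoded partners of the mitochondrial proteins were mostly either lower after overexpression or not called. Of 77 tested subunits of complexes I to V, 39 were called lower and 2 higher, with a median of -0.35, against 26.0% of all genes called lower. By complex, 16 of 37 subunits of complex I, 1 of 4 of complex II, 7 of 9 of complex III, 7 of 12 of complex IV and 8 of 15 of complex V were called lower. Complex II has no mitochondrially encoded subunit. For complex III 1 of 9 was called without overexpression library 2, 2 without overexpression library 3 or control library 3, and 0 under TPM scaling or without the ALB libraries. NDUFB10 of complex I had 54.6 ± 5.25 FPKM after overexpression, against 126.3 ± 0.65 FPKM in the control (-1.13, edgeR adjusted p = 5.42e-05), and COX5B of complex IV 36.1 ± 5.29 FPKM, against 67.3 ± 6.89 FPKM (-0.82, edgeR adjusted p = 0.00116). The count fell to 24 under TPM scaling and without overexpression library 2, to 25 without control library 3 and to 13 without the 4 ALB libraries, where the median was -0.56. After knockdown 3 subunits were called higher and 3 lower (median 0.06), where 7.02% and 7.43% of all genes were. Between overexpression and knockdown 1 was called higher and 43 lower (median -0.37), where 25.5% and 24.5% of all genes were.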

How the data were processed

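The labels describe total RNA of PANC1 cells, selected on oligo(dT) beads, fragmented and made into dUTP-marked libraries. Cutadapt 1.9, HISAT2 2.0.4 and StringTie 1.3.4d are listed in the submitters' processing notes, and no source used here gives their settings, the genome build or the strand setting. The authors deposited 1 table with a whole-number count and an FPKM value per gene and library. Within a library, FPKM was the count per kilobase times 1 constant over the 13 coding rows (spread at most 0.0016%). Positions and strands of all 37 members equal the GENCODE annotation of GRCh38 (58394 of 60612 gene identifiers matched), and sequences were read from that build.

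Counts of all 9 libraries were scaled by TMM and fitted as 3 groups by quasi-likelihood in edgeR 4.0.16 under R 4.3.3 (6 residual degrees of freedom). Genes with FPKM of at least 1 in at least 3 libraries were tested (12545; common biological coefficient of variation 0.226), with Benjamini-Hochberg adjustment over all. Standard errors are the log2 fold change over the square root of F, and approximate. The steps were tested on simulated data. Shares, makeup and ratios were compared with exact two-sided permutation tests in scipy 1.17.1, and those of the 3 tRNA ratios are not reported. Alternatives used DESeq2 1.42.0, limma 3.58.1 on log2 of FPKM plus 1 or 0.1, on quantile-normalized values and on TPM made from FPKM, other filters, each library left out, a replicate block, and, chosen after seeing the data, the ALB libraries left out, nuclear copies added, the block in a 2-group fit or as paired share differences, and the + strand tRNA share without MT-TL1.

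All 37 members are named, and of each other list up to 3 called genes with the smallest adjusted p per comparison; ATP5F1B and some others of these are left out of the text. Members, lists and tests were chosen with earlier results of these data known. Same-numbered knockdown and control libraries deviated together (correlations 0.139, 0.132 and 0.117), so these numbers were taken as pairs in alternatives. Pairing entered only the fits with a replicate block and the paired share differences. The main fit, its knockdown calls and the other permutation tests were unpaired. Numbers of overexpression with control (-0.093, 0 and 0.002) and with knockdown (-0.052, 0.251 and 0.069) were not taken as pairs, apart from the block in the 3-group fit. Counting error is small for coding rows; FPKM of tRNA rows rests on as few as 14 counts.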

Additional observations from a re-analysis of the deposited data

How the results depend on the processing

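Counts of coding rows called after overexpression (12 as reported) were 5 under quantile scaling and 7 to 13 with 1 library left out; of rRNA and tRNA rows (15) they were 9 under quantile scaling, 4 without the 4 ALB libraries and 7 to 14 with 1 library left out. After knockdown, coding calls (2) were 5 with DESeq2 and 0 under quantile scaling, with no filter, with the replicate block in a 2-group fit and without the ALB libraries (0 to 5 with 1 library left out). The rRNA and tRNA calls after knockdown (3) were 5 with DESeq2, 6 under TPM, 1 with no filter and 0 without the ALB libraries (2 to 4). Between overexpression and knockdown, coding calls (1) were 3 with library totals only and with limma at either pseudocount and 5 under quantile scaling (1 to 2), and rRNA and tRNA calls (8) were 3 with no filter and 2 without the ALB libraries (4 to 10). With the replicate block in the 3-group fit, coding calls were 12, 2 and 1 and rRNA and tRNA calls 15, 2 and 6, losing MT-TD after knockdown and MT-TA and MT-TN between overexpression and knockdown; no other call changed. As a share of the FPKM total, the mitochondrial differences were -10.29, -6.50 and -3.80 points; as a share of counts without the ALB libraries they were -6.58 and -5.19 points against control, and the paired mean after knockdown was -2.96. Also, with 1 library left out the makeup after knockdown had 3 to 5 separated genes. Single rows that turned sign were MT-RNR2 after overexpression (0.073, quantile), MT-RNR1 after overexpression (-0.0008, without the ALB libraries), MT-ND1 (0.083, quantile; -0.34 to 0.010 with 1 library left out, positive without control library 1) and MT-ND2 (0.10, quantile) after knockdown, MT-TI (-0.036) and MT-TQ (-0.17) after knockdown without the ALB libraries, MT-TL2 after knockdown (-0.032 to 1.01 with 1 library left out, negative without knockdown library 2), and MT-ATP6 (0.20) and MT-ND5 (0.13) between overexpression and knockdown under quantile scaling. Quantile scaling forces the same values on each rank in every library, and mitochondrial rows hold the top ranks; the fits without the ALB libraries hold 1 overexpression and 1 control library, assumed to vary like the knockdown group; other causes were not tested. TPM scaling moved the median of all genes by 0.137 after overexpression and 0.141 after knockdown, giving 3950 higher and 2244 lower (as reported, 3438 and 3264) and 1306 and 456 (881 and 932). Over all genes, knockdown calls were 1354 higher and 1413 lower with DESeq2 and 1058 in all with no filter, and without the ALB libraries calls were 1164 higher and 1255 lower after overexpression, 5 and 1 after knockdown and 1791 and 1748 between overexpression and knockdown.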
